A study of Mus musculus with 5 samples.

Results

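The receptors for complement fragments and the membrane regulators of complement were followed in pancreatic leukocytes as a set of 6 genes named by symbol: C3ar1, C5ar1, Cr2, Cd55, Cd46 and Cd59a. Each had 1 probe set that carries its symbol alone, out of 19938 genes so named on the array, and 4 of the 6 passed an expression filter of a mean log2 intensity of at least 6. CD45+ cells had been sorted by flow cytometry from the pancreas of 5 female WT NOD mice aged 10 weeks, and the RNA of each mouse was read on 1 array. NOD mice become diabetic without treatment through an autoimmune attack on the islets. The mice carried no other treatment or genotype in the labels and form 1 group. They differ in the T2 value that MRI gave before the pancreas was taken, the transverse relaxation time of the tissue, which was 28.98, 30.02, 32.77, 35.24 and 35.3 ms from mouse 5 to mouse 1. The comparison was of transcript level with T2, and runs of values from mouse 5 to mouse 1 are in the order 5, 4, 3, 2, 1, which is that of rising T2. The labels do not say which T2 values go with more infiltration.

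Complement is a set of plasma proteins that cleave each other on a target surface. The small fragments released from C3 and C5 act on the G protein-coupled receptors encoded by C3ar1 and C5ar1, which in the mouse are known from macrophages and, for C5ar1, from neutrophils. The large fragments stay on the target: the end product of C3 is bound by the receptor encoded by Cr2, which sits on mature B cells and lowers the threshold of the B cell receptor. The mouse Cr2 gene makes both complement receptors CR1 and CR2 by splicing. Membrane regulators protect the host cell. CD55 takes apart the enzymes that cleave C3, CD46 helps factor I to cleave C3b and C4b and in the mouse is known mainly from sperm, and CD59 blocks the membrane attack complex.

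The sequences below are the 250 bases before the transcription start that RefSeq's table lists for the 4 genes that passed the filter, shown because Cr2 and Cd55 varied together over the mice while C3ar1 and C5ar1 did not vary with them. All are on the minus strand of GRCm38.p6 and are written 5′ to 3′ in the direction of the gene, with capitals for the GC box GGGCGG or its complement CCGCCC. The windows are chr6:122856158-122856407 for C3ar1, chr7:16259339-16259588 for C5ar1, chr1:195176720-195176969 for Cr2 and chr1:130462745-130462994 for Cd55.
C3ar1: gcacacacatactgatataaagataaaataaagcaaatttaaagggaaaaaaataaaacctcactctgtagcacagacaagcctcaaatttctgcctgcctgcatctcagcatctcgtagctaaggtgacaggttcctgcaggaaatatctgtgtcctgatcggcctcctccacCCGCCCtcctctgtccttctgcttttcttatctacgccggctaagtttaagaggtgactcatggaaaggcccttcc
C5ar1: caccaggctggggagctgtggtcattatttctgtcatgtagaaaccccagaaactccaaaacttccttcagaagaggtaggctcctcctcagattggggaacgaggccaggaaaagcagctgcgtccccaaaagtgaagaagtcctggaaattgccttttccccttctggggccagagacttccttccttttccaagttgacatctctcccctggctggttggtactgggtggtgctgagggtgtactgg
Cr2: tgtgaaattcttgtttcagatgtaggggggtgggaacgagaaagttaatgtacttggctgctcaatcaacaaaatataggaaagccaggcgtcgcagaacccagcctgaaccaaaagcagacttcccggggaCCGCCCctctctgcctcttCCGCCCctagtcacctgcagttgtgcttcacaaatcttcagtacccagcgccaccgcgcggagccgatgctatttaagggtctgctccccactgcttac
Cd55: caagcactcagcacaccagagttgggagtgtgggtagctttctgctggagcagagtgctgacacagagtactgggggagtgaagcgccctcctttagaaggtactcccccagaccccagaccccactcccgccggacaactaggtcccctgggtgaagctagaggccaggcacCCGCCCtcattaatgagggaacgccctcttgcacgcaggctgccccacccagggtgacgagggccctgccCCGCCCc
The Cr2 and Cd55 windows each held 2 matches to the GC box on either strand, at 118 and 99 bases before the start of Cr2 and at 77 and 7 bases before that of Cd55. The C3ar1 window held 1 match, at 76 bases, and that of C5ar1 held 0. At least 1 match was present in 32.7% of the 32851 windows of the same length in the table. The share of windows with 2 matches was not counted, so the pair is not shown to be rare. The GC content was 53.6% for Cr2 and 64.0% for Cd55, against 45.6% for C3ar1, 52.8% for C5ar1 and a median of 52.4% over all windows. None of these 4 windows matched GAGGAA, the core of the PU.1 site, or TTGCNNAA, a C/EBP site, on either strand, and these letters were found in 23.3% and 9.56% of all windows. Such matches describe letters only. In RefSeq's gene order Cr2 and Cd46 lie on chromosome 1 on either side of Cr1l, and Cd55 lies on the same chromosome beside its near copy Cd55b, with 538 protein-coding genes between Cd55 and Cr2. Cd59a lies beside its near copy Cd59b on chromosome 2, and C5ar1 beside C5ar2 on chromosome 7.

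Ptprc, which encodes CD45, had a log2 intensity of 11.06 ± 0.0998 (SD, n = 5). None of the genes measured for islet endocrine cells (6 genes), endothelial and stromal cells (9 genes) or erythroid cells and platelets (5 genes) passed the filter, and their lists averaged 4.09, 4.27 and 4.22. Acinar genes were present, with 5 of 7 past the filter and a mean that lay between 6.68 in mouse 2 and 7.60 in mouse 1. The median intensity of the arrays lay between 23.8 and 24.5. Having 5 arrays limits how precise any slope can be, and a value for 1 mouse, read on a single array, has no error of its own.

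C3ar1, the receptor for the C3 fragment C3a, was high in the mice of low T2 and low in those of high T2. C3ar1 read 288, 300.0, 204, 110.5 and 83.5 from mouse 5 to mouse 1. Mice 5 and 4 stood at nearly the same level, mouse 3 lay between, and mice 2 and 1, of highest T2, had the lowest readings. In a bulk sample fewer cells of a type and less RNA per cell cannot be told apart. The T2 slope was -0.27 ± 0.044 log2 per ms (SE, n = 5), a fitted level at the lowest T2 that is 3.28 times that at the highest (95% interval 1.90 to 5.65). It did not pass limma's moderated test over all genes, at an adjusted p = 0.373 and an unadjusted p of 0.00401. Over all 120 ways to assign the T2 values to the mice, the exact permutation test gave p = 0.0417 (two-sided), where 0.00833 is the smallest p that 5 mice allow. When genes with the same value on 3 or more arrays were left out of the fit, C3ar1 passed at a limma adjusted p = 0.0468 with the same slope. Over its other alternatives the adjusted p lay between 0.156 and 0.903.

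C5ar1, the receptor for C5a, which draws neutrophils and macrophages, had a shallower slope. It read 118, 94.0, 116, 59.8 and 73.6 from mouse 5 to mouse 1. Mice 5 and 3 shared the highest level, although their T2 differed, and mice 2 and 1 were again the lowest. The slope was -0.11 ± 0.046 log2 per ms (SE, n = 5; limma adjusted p = 0.828), with a fitted fold of 1.65 for the lowest over the highest T2 and a 95% interval from 0.928 to 2.92. Its value in mouse 2, log2 5.90, lay under the filter.

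Cr2 varied between mice by as much as 2.67-fold and not in the order of T2. Its intensities were 383, 374, 191, 291 and 509 from mouse 5 to mouse 1. The lowest reading was in the mouse of middle T2, and mice 2 and 1, whose T2 differed least, stood far apart. The slope was -0.0045 ± 0.093 log2 per ms (SE, n = 5; limma adjusted p = 1), with a 95% interval from -0.27 to 0.26. The interval reaches nearly to the slope fitted for C3ar1, so 5 mice do not show that Cr2 is unrelated to T2.

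Cd55 followed the same course. It read 221, 219, 117, 161 and 283 from mouse 5 to mouse 1. As for Cr2, mouse 1 was highest, mouse 3 lowest, and mice 5 and 4 nearly equal. The slope was -0.015 ± 0.085 log2 per ms (SE, n = 5; limma adjusted p = 1), with a 95% interval from -0.26 to 0.23.

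Cd46 and Cd59a were near the lower end of the scale in every mouse and did not pass the filter. Cd46 read 18.3, 13.8, 13.4, 14.1 and 14.1 from mouse 5 to mouse 1, and lay under the median of each array. Its slope, fitted without the filter, was -0.036 ± 0.026 log2 per ms (SE, n = 5; limma adjusted p = 0.813), and without mouse 5, the only mouse that stood apart, it was 0.0081. Cd59a read 10.1, 7.06, 8.15, 10.1 and 7.25 from mouse 5 to mouse 1, with a slope of -0.0051 ± 0.045 (limma adjusted p = 1). Both slopes were negative, as were 46.3% of the 19938 genes fitted without the filter, of which 0% passed after adjustment. Signals of this size do not tell a low level from background, since the deposited values carry no detection call.

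**Figure D1:**
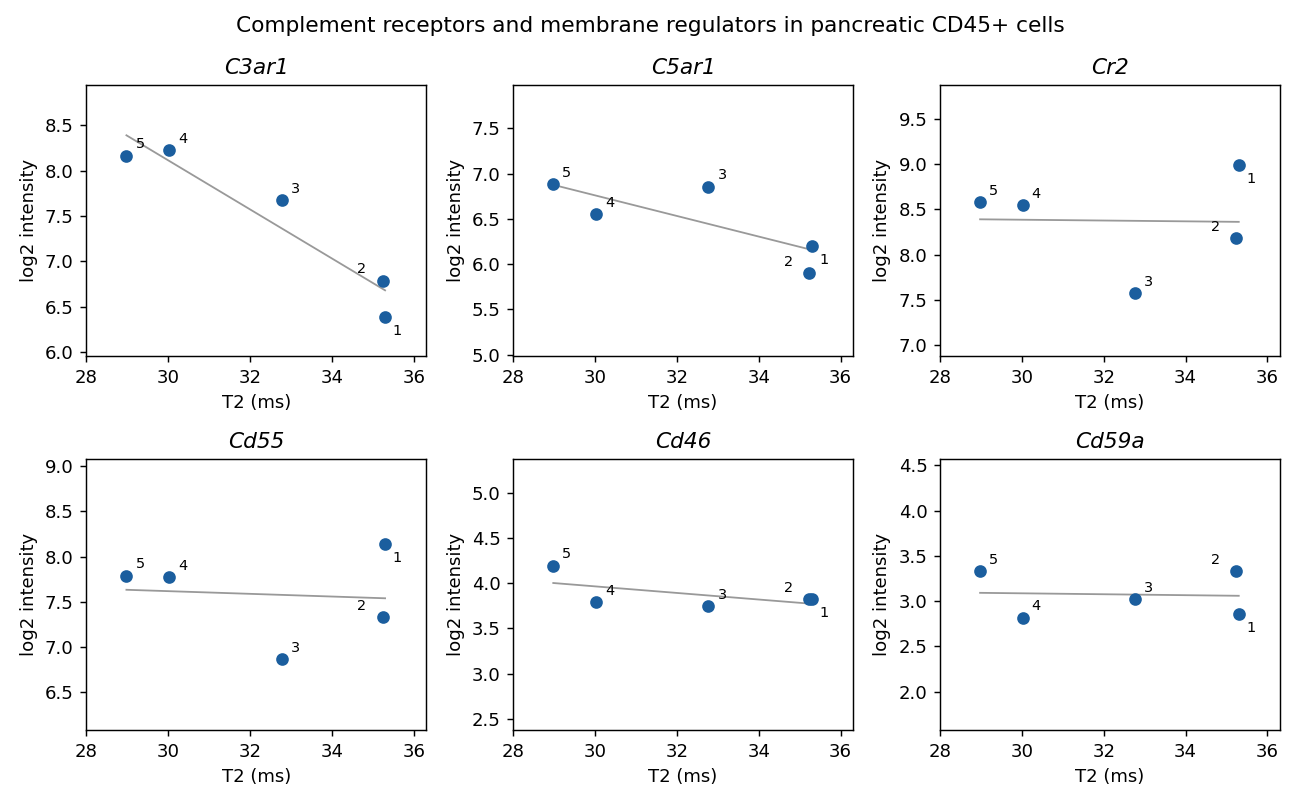
Log2 intensity (y axis) against T2 in ms (x axis) for the 6 genes, with 1 point for each of the 5 mice, labelled by mouse number, and the least-squares line in grey. Every panel spans the same height on the log2 scale around its own mean; C3ar1 descends with T2, while Cr2 and Cd55 are lowest in mouse 3 and highest in mouse 1.

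Among the 4 genes that passed the filter 4 slopes were negative, against 67.9% of the 6603 genes tested, and the median slope was -0.064 over the 4 and -0.0074 over all tested. At an unadjusted p under 0.05 with a negative slope there was 1 of the 4, C3ar1, against a background of 4.59%. After adjustment limma called 0 of the 4 and 0% of all genes tested, where 349 genes had an unadjusted p under 0.05. The sign of Cr2, Cd55, Cd46 and Cd59a changed under at least 1 alternative each, so their direction is not given as higher or lower.

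The myeloid receptors were set against Cr2, the member known from B cells, within each array. The difference C3ar1 minus Cr2 was -0.41, -0.32, 0.09, -1.40 and -2.61 from mouse 5 to mouse 1 on the log2 scale. Only its change over the mice has a meaning, since probe sets of different genes share no scale. It was lowest in the mice of highest T2, with a slope of -0.27 ± 0.15 log2 per ms (SE, n = 5), and the exact permutation test gave p = 0.192 (adjusted 0.383 over 2 pairs). For C5ar1 minus Cr2 the slope was -0.11 ± 0.14 (exact permutation p = 0.50, adjusted 0.50). Without mouse 1 the slopes were -0.13 for C3ar1 minus Cr2 and -0.023 for C5ar1 minus Cr2. The slopes of the myeloid receptors were thus not shown to differ from that of Cr2, whose own spread enters both differences.

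The genes whose profile over the 5 mice was nearest to a member were found by the root mean square (RMS) distance between log2 values centred on each gene's mean, among the 6602 other genes past the filter. The gene nearest to Cr2 was Cd55, at a distance of 0.053, and the next, Zfp318, a regulator of IgD splicing in mature B cells, lay 2.32 times as far, at 0.123. The median distance of all genes from Cr2 was 0.467. The myeloid receptors lay at the far end of this order, with C5ar1 at rank 6473 (0.690) and C3ar1 at rank 6589 (0.972). The values were centred but not scaled, so the spread of a gene as well as its shape sets every such rank. C3ar1, of wide spread, had a median distance of 0.736 from all genes. The difference Cd55 minus Cr2 was -0.79, -0.77, -0.71, -0.85 and -0.85 from mouse 5 to mouse 1. Its SD over the mice was 0.059, against 0.491 for Cd55 itself. Fchsd2, at 0.138, Ifi209, an interferon-inducible gene, at 0.146, and Fcmr, the receptor for IgM, at 0.160 completed the 5 nearest. These distances describe 5 arrays that all 6602 genes share and carry no test.

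Genes of the B cell list spread from near Cr2 to farther ranks in this order. Of its 11 genes past the filter 5 were among the 100 genes nearest to Cr2, with a median rank of 138 and a range from 5 (Fcmr) to 2169 (Blk, a kinase of B cells). The list of follicular and marginal zone B cells was more mixed. Of its 8 genes 2 were among the 100 nearest, with a median rank of 1276 and a range from 16 (Fcer2a, the low-affinity receptor for IgE) to 6407 (Dtx1, a Notch pathway gene). The 10 T cell genes ranked from 6024 (Cd28) to 6566 (Cd8a), a range that Dtx1 falls within. The B cell list mean was 8.85, 8.82, 8.31, 8.26 and 9.08 from mouse 5 to mouse 1. Mouse 1 was thus highest for the B cell list as for Cr2, but mice 3 and 2 had nearly equal B cell means while Cr2 read 191 and 291 in them. Relative to the B cell mean, Cr2 was -0.27, -0.27, -0.73, -0.08 and -0.09 from mouse 5 to mouse 1. Cd55 did likewise, with -1.44 in mouse 3 and between -1.06 and -0.93 in the others. The slope of Cr2 minus the B cell mean was 0.026 ± 0.050 log2 per ms (SE, n = 5; exact permutation p = 0.767, adjusted 0.975 over 4 such differences).

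Markers of other cells moved over the mice as well. The follicular and marginal zone B cell list averaged 8.01 in mouse 3 and 8.09 in mouse 2, against 8.36 to 8.40 in the others. Mouse 3 also had the highest neutrophil mean, 8.77, against 6.72 to 7.97 elsewhere. Follicular dendritic cells, stromal cells that carry Cr2 and would be removed by a CD45 sort, had 1 of 6 measured genes past the filter, the B cell chemoattractant Cxcl13, which leukocytes can make too, and a list mean of 5.14 ± 0.17 (SD, n = 5). The part of these cells in the level of Cr2 was not tested. Of the B cell coreceptor and signalling list, which holds the kinases Lyn, Syk and Btk, 9 of 11 were measured and passed the filter, 8 had a negative slope (67.9% over all genes tested), and limma gave 0 an unadjusted p under 0.05 with a negative slope (4.59% over all), with a median slope of -0.034. Cd79a and Cd79b, the signalling chains of the B cell receptor, had slopes of -0.065 ± 0.045 and -0.0092 ± 0.054.

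**Figure D2:**
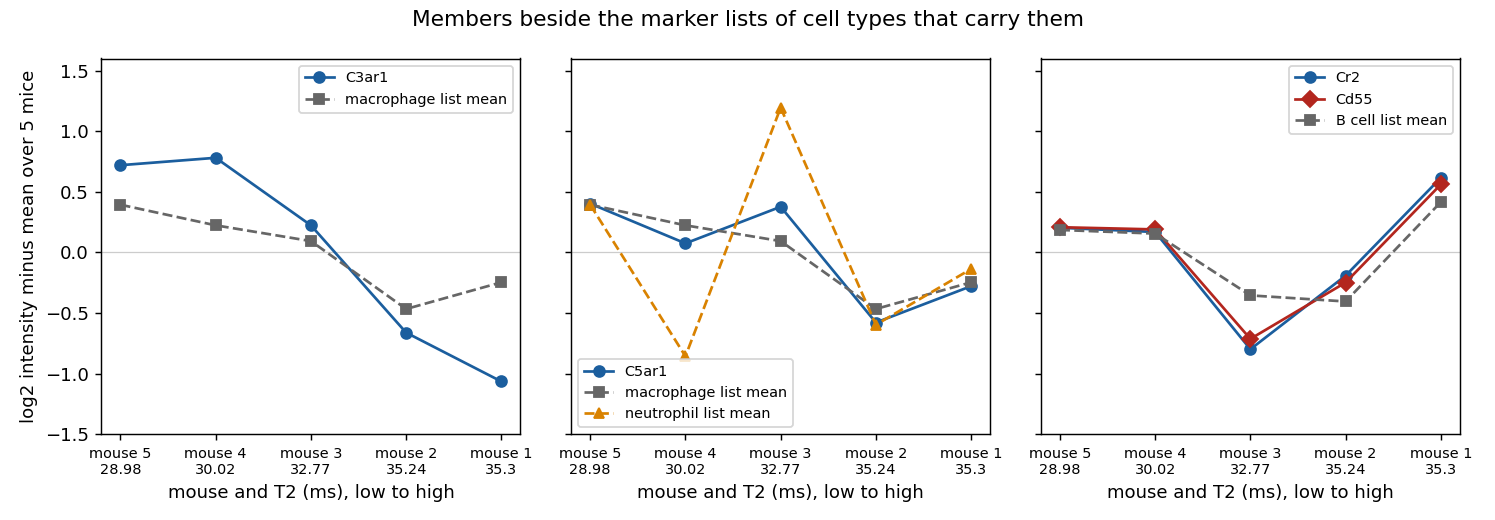
Log2 intensity minus its mean over the 5 mice (y axis) for C3ar1 (left), C5ar1 (middle), and Cr2 and Cd55 (right), beside the means of marker lists, with mice on the x axis from the lowest to the highest T2 in ms. Points are single arrays; Cr2 and Cd55 nearly coincide and fall below the B cell mean in mouse 3, C5ar1 lies near the macrophage mean, and C3ar1 has a wider range than that mean.

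C3ar1 lay among genes of macrophages and of soluble complement. The 5 nearest were the endothelin receptor gene Ednrb at 0.092, the lipoxygenase gene Alox15 at 0.098, the membrane protein gene Pmp22 at 0.106, C1qa, a chain of complement C1q, at 0.113 and Ltbp1, a binding protein of latent TGF-beta, at 0.115. Alox15 read 3240, 3257, 2197, 1421 and 897 from mouse 5 to mouse 1. It was thus level in mice 5 and 4 and descended from there, as C3ar1 did. All 7 genes of the soluble complement list past the filter were among the 100 nearest to C3ar1, from C1qa at rank 4 to Cfb, factor B, at rank 56. That list had 30 genes measured, 7 of 7 negative slopes (67.9% over all genes tested) and 7 of 7 with an unadjusted p under 0.05 as well (4.59% over all), with 0 after limma's adjustment over all genes and a median slope of -0.230 (-0.0074 over all). Its brightest genes were Cfp, properdin, with a slope of -0.20 ± 0.034, and C4b, a C4 gene, with -0.26 ± 0.029. Genes this near to C3ar1 share its slope, so the ranks and slopes of this list are not separate observations. Of 8 macrophage genes past the filter 3 were among the 100 nearest, the first being Adgre1, the F4/80 surface marker, at rank 13, while the neutrophil genes ranked from 1216 to 6602.

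C3ar1 varied more than the macrophage list mean, although a mean over 8 genes can be steadier than a single gene. That mean was 9.69, 9.52, 9.39, 8.83 and 9.05 from mouse 5 to mouse 1. Of 13 macrophage genes measured 8 passed the filter and entered this mean. The slope was negative for 8 of these 8, against 67.9% of all genes tested. Of them, 4 had an unadjusted limma p under 0.05 as well, against 4.59% of all. After adjustment there were 0, and the median slope was -0.081. Apoe, a lipoprotein gene of macrophages, had a slope of -0.24 ± 0.020, Lyz2, lysozyme, -0.091 ± 0.014 and Ctss, cathepsin S, -0.042 ± 0.021 log2 per ms, so single macrophage genes spanned much of the range up to C3ar1. C3ar1 minus this mean was -1.53, -1.29, -1.71, -2.05 and -2.66 from mouse 5 to mouse 1. This difference was lowest in the mice of highest T2, with a slope of -0.16 ± 0.055 log2 per ms (SE, n = 5), and this did not pass the exact permutation test (p = 0.0583, adjusted 0.233 over 4 differences). Of 10 measured genes of mast cells, basophils and eosinophils 5 passed the filter. All 5 had a negative slope (67.9% over all genes tested). Of them, 3 had an unadjusted limma p under 0.05 (4.59% over all) and 0 passed limma's adjustment. Their list mean lay between 7.03 in mouse 5 and 5.79, under the filter level, in mouse 1. Genes this near the filter can pass it through the mice where they are high, so these counts are a description only. The part of these cells in the level of C3ar1 was not tested.

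C5ar1 stayed close to the macrophage mean. C5ar1 minus that mean was -2.81, -2.97, -2.53, -2.93 and -2.84 from mouse 5 to mouse 1. The SD of this difference was 0.172, against 0.424 for C5ar1, and its slope was 0.0010 ± 0.034 log2 per ms (SE, n = 5; exact permutation p = 0.975, adjusted 0.975). Against the neutrophil mean the SD was 0.623 and the slope -0.084 ± 0.11 (exact permutation p = 0.50, adjusted 0.975). The neutrophil list read 7.97, 6.72, 8.77, 6.98 and 7.44 from mouse 5 to mouse 1, and its peak in mouse 3 goes with the highest excess of C5ar1 over the macrophage mean. Whether neutrophils added to C5ar1 in that mouse was not tested. The genes nearest to C5ar1 were Pla2g7, a lipoprotein-associated phospholipase, at 0.051, F630028O10Rik at 0.056, Anxa1, annexin A1, at 0.058, Tgfbi, a matrix protein that macrophages make, at 0.061 and Alox5ap, the activating protein of 5-lipoxygenase, at 0.084. The first macrophage gene was Lyz2 at rank 39, with a median rank of 153 over 8 genes past the filter and Apoe farthest at 2412. The first neutrophil gene was Csf3r, the G-CSF receptor, at rank 131, but the median over 7 genes was 6547, with Ngp farthest at 6602. Among the 100 genes nearest to C5ar1 were 3 of the 8 macrophage genes and 0 of the 7 neutrophil genes. C5ar1 was at rank 116 in the order from C3ar1, with a distance of 0.499. In the order from C5ar1 the same distance put C3ar1 at rank 6289 of 6602. The median distance of all genes from C5ar1 was 0.381, so the 2 receptors were not near each other by that measure.

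**Figure D3:**
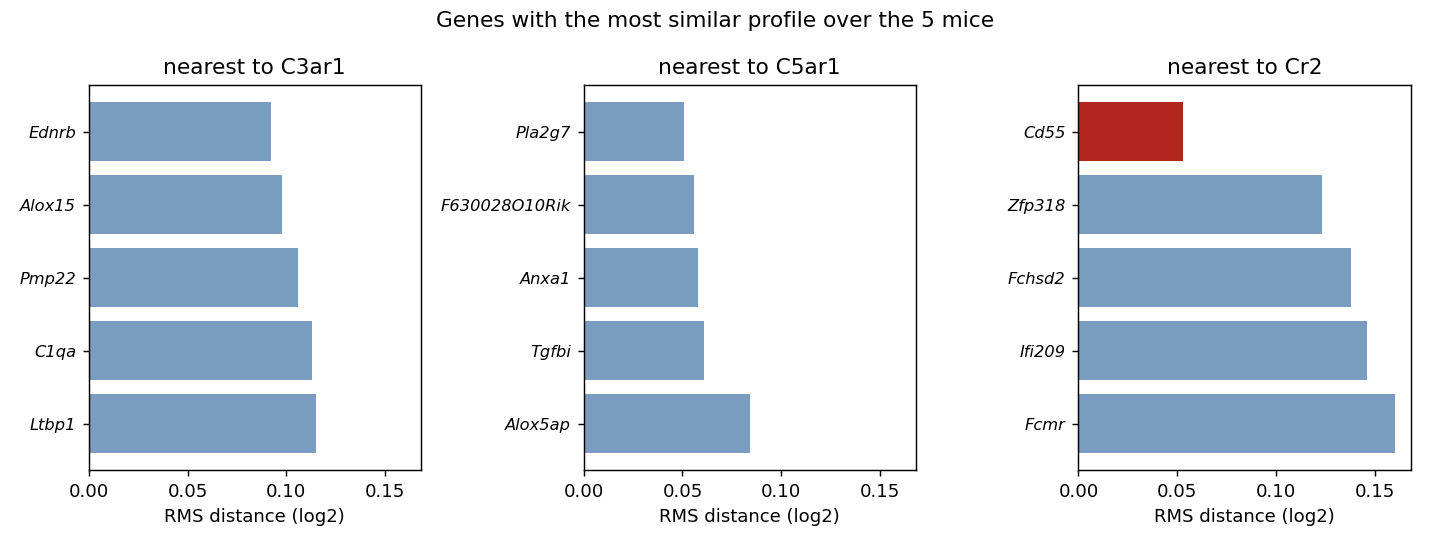
RMS distance on the log2 scale (x axis) of the 5 genes past the filter with the profile most like C3ar1, C5ar1 and Cr2 over the 5 mice, nearest at the top. Cd55 (red) is the nearest to Cr2 at 0.053, ahead of Zfp318 at 0.123.

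Receptors that share ligands or signalling with the members gave mixed values. C5ar2, the other receptor for C5a, did not pass the filter and read 43.5 on 3 of the 5 arrays, with 42.1 in mouse 4 and 53.2 in mouse 3. Vsig4, the macrophage receptor CRIg for C3b, and Itgam, the alpha chain of complement receptor 3, had the steepest negative slopes of the 9 other membrane complement genes, at -0.45 ± 0.071 and -0.20 ± 0.017 log2 per ms (SE, n = 5; limma adjusted p = 0.364 and 0.243). Vsig4 read 268, 255, 91.2, 62.5 and 29.1 from mouse 5 to mouse 1. In mice 2 and 1 it lay under the filter, and in mouse 1 near the array median of 24.3, so its slope rests partly on low signals. Itgb2, the beta chain shared by complement receptors 3 and 4, had a slope of -0.076 ± 0.023 (limma adjusted p = 0.828), and Cd93, once described as a C1q receptor, -0.071 ± 0.032. Itgax, the alpha chain of complement receptor 4, had 0.00037 ± 0.0047. Its deposited value was equal on 4 arrays, which makes that standard error small. In the list of receptors and proteins that relay chemoattractant signals 12 of 14 measured genes passed the filter, and 12 of 12 had a negative slope, against 67.9% of all genes tested. Of these, 3 had an unadjusted p under 0.05, against 4.59% of all, and 0 passed limma's adjustment, with a median of -0.030. Its brightest member Gnai2, a subunit of the inhibitory G protein through which both receptors signal, had a slope of -0.021 ± 0.012.

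Among the other membrane regulators Cr1l, known as Crry and the main mouse inhibitor of C3 cleavage on blood cells, was level. It read 118, 120.3, 118, 118 and 118 from mouse 5 to mouse 1, and the deposited value was equal on 4 arrays. Its slope was -0.0021 ± 0.0040 log2 per ms (SE, n = 5; limma adjusted p = 0.943), and equal values make its standard error small. Cd55b and Cd59b, near copies of Cd55 and Cd59a that are known mainly from testis, did not pass the filter. Cd55b read 22.5, 23.5, 19.0, 20.5 and 23.5 from the lowest to the highest T2, so it too was lowest in mouse 3. These readings spanned only 1.24-fold and lay under the median of each array, where a low level is not told from background. Probes of near copies can bind each other's RNA, and the share of this in Cd55 and Cd55b is not given by the files. Cd59b read between 6.18 and 6.64.

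**Figure D4:**
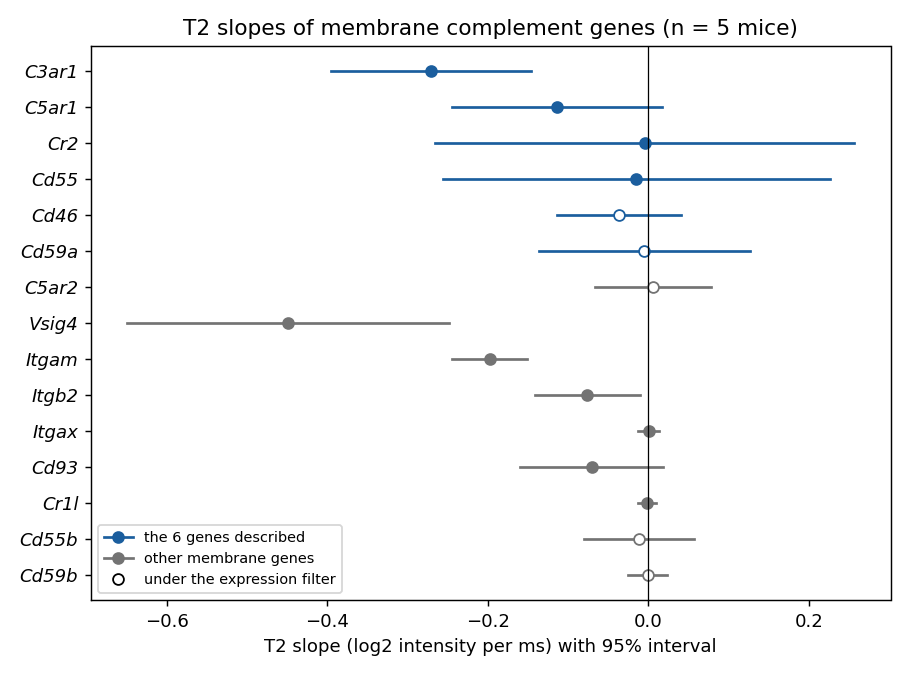
T2 slope in log2 intensity per ms (x axis) with its 95% interval from limma's moderated fit (n = 5 mice) for the 6 genes described (blue) and 9 other membrane complement genes (grey); open circles mark genes under the expression filter. The interval of C3ar1 lies below 0, and those of C5ar1, Cr2, Cd55, Cd46 and Cd59a include 0; no gene passed after adjustment.

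The remaining lymphoid and dendritic cell lists had shallow slopes. Over list means the slope was 0.014 ± 0.067 for T cells, -0.0081 ± 0.055 for NK cells and -0.031 ± 0.029 log2 per ms for dendritic cells (SE, n = 5). The acinar mean had a slope of -0.0023 ± 0.068, and with it as a covariate the slope of C3ar1 was -0.27 ± 0.034. The B cell list, at -0.031 ± 0.069, and the neutrophil list, at -0.029 ± 0.16, had slopes smaller than their standard errors.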

How the data were processed

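The authors deposited 1 linear intensity per probe set and array. RMA and Affymetrix Power Tools are named for it in the submitters' processing notes. RMA corrects background, quantile normalizes arrays and summarizes probes; tool versions and the genome build were not given in the sources used here. The linear scale was recognised from array medians of 23.8 to 24.5 and maxima up to 19435; centring and detection of single probe sets stay unknown. GEO's platform annotation gave 21789 of 35556 probe sets 1 symbol, 1621 several (not named) and 12146 none. All 177 list genes looked up by identifier kept their symbol in RefSeq's GRCm38.p6 table, which also supplied the promoters.

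Intensities were transformed to log2. The probe set of highest mean stood for each gene, giving 19938 genes, and 6603 with a mean log2 of at least 6 were tested. T2 was the regressor in limma 3.58.1 (lmFit, eBayes; R 4.3.3), two-sided, with 3 residual degrees of freedom and Benjamini-Hochberg adjustment over all genes tested; the script was tested on simulated data. Equal values on 3 or more arrays, found in 38.2% of genes tested, lower the residual spread. Cd46 and Cd59a were fitted without the filter. Differences between genes or from list means (members past the filter) used least-squares slopes and the exact permutation of T2. The 6 genes, the gene lists and the tests were chosen with earlier results of these data known. Named genes were the 6 members, all measured genes of the other membrane list, up to 3 brightest genes of each further list, and the 5 nearest to C3ar1, C5ar1 and Cr2; Adgre1, Fcer2a, Cd28, Cxcl13 and others given by rank extremes were named after their values were seen.

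The labels name separate mice but no batch, slide or date, so no batch could be tested. T2 descends with the sample numbers; if handling followed them, its effects and those of T2 cannot be told apart. Alternatives were other filters, arrays centred or quantile normalized again, all probe sets of a gene averaged, ranks of T2, another variance model, array weights, an acinar covariate, removal of genes with equal values, a threshold of 0.10 and each mouse left out.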

Additional observations from a re-analysis of the deposited data

Results flagged for a closer look

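Of 83 genes, list means and differences tested for 1 mouse that stands apart, 13 passed Dixon's criterion, the gap to the nearest mouse as a share of the range, which about 1 in 20 would do by chance. Of these, 7 had equal values on 3 or more arrays, where a differing array more easily stands apart. Among the 6 genes described the criterion held for Cd46, which read 18.3 in mouse 5, its highest, and 13.4 to 14.1 elsewhere (gap share 0.834). Among other membrane complement genes it held for C5ar2, highest in mouse 3 at 53.2 against 42.1 to 43.5 (0.862), Cd59b, highest in mouse 3 at 6.64 against 6.18 to 6.25 (0.848), Itgax, highest in mouse 3 at 105.7 with 102.7 in the others (1), and Cr1l, highest in mouse 4 at 120.3 with 118 in the others (1).

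The G protein gene Gnb1 was highest in mouse 5 at 913 against 806 to 820.1 (0.861). S1pr1, a lymphocyte exit receptor, was lowest in mouse 3 at 914 against 1048 to 1062 (0.909), and Notch2, which marginal zone B cells need, was lowest in mouse 2 at 533 against 770.2 to 871 (0.751). Nkg7, a gene of cytotoxic granules, was lowest in mouse 1 at 129 against 253 to 329 (0.722). Ltbr, the lymphotoxin beta receptor, was highest in mouse 3 at 71.3 against 56.2 to 60.0 (0.726), and Sst, somatostatin, lowest in mouse 5 at 26.2 against 36.4 to 38.8 (0.84). The dendritic cell list mean was lowest in mouse 1, at log2 6.70 against 7.03 to 7.15 (0.716), and that of endothelial and stromal genes highest in mouse 3, at 4.38 against 4.23 to 4.25 (0.872).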

How the results depend on the processing

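C3ar1 and C5ar1 kept a negative slope under every alternative run. C3ar1 passed the adjusted threshold under 1 of 16, the removal of genes with equal values (-0.27, limma adjusted p = 0.0468). Fewer genes were tested there, 4079 against 6603, but the fit of C3ar1 itself changed too. Its SE was 0.038 against 0.044 in the main fit, and its unadjusted limma p was 0.00039 against 0.00401. Without each mouse in turn the slope of C3ar1 lay between -0.32 and -0.23 and that of C5ar1 between -0.14 and -0.076. The slope of Cr2 turned positive with arrays renormalized (0.0069), on ranks of T2 (0.046 per rank) and without mouse 2, 3, 4 or 5; over the mice left out it ran from -0.098 to 0.039 (0.021, 0.0046, 0.014 and 0.039 in the reversals). That of Cd55 turned positive on ranks (0.027 per rank) and without mouse 2, 4 or 5 (0.014, 0.0028 and 0.021), and was -0.10 without mouse 1. Cd46 reversed without mouse 5 (0.0081), and was -0.056 without mouse 4. Cd59a reversed with array weights (0.040) and without mouse 1 or 5 (0.025 and 0.050), and was -0.045 without mouse 2. C5ar1 minus the macrophage mean, near 0, reversed with no filter (-0.025), a filter of 5 (-0.00096) or 7 (-0.0044), on ranks (-0.0032) and without mouse 3 or 4 (-0.0023 and -0.016), and was 0.018 at its highest. The cause of these reversals was not tested. The other differences kept their sign and their side of the threshold: leaving out a mouse gave -0.36 to -0.13 (without mouse 1) for C3ar1 minus Cr2, -0.15 to -0.023 (without mouse 1) for C5ar1 minus Cr2, 0.0065 (without mouse 2; 0.0082 without mouse 1) to 0.053 (without mouse 5) for Cr2 minus the B cell mean, -0.21 to -0.10 (without mouse 1) for C3ar1 minus the macrophage mean and -0.15 (without mouse 5) to -0.00098 (without mouse 4) for C5ar1 minus the neutrophil mean. With 4 mice the exact test has less room, so these p-values say little about stability. Over all genes limma called 0; a filter of 7 gave 3 genes, renormalized arrays 4, array weights 4, removal of equal values 35 and an adjusted threshold of 0.10 gave 3, while the other alternatives, each mouse left out included (0 to 0), gave 0. No paired analysis was possible because the mice form 1 group. Intensities near those of Cd46 and Cd59a limit any statement on these genes.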
